A study of Mus musculus with 12 samples.

Results

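The nuclear genes for subunits of the oxidative phosphorylation complexes were followed through postnatal development of the mouse cerebellum. They were chosen by symbol, as entries that start with Ndufa, Ndufb, Ndufc, Ndufs, Ndufv, Uqcr, Cox4 to Cox8 or Atp5, or that are Sdha, Sdhb, Sdhc, Sdhd, Cyc1 or Cycs, without the assembly factors that start with Ndufaf. The rule found 87 of the 24421 entries of the table, of which 38 fell in complex I, 4 in complex II, 9 in complex III, 18 in complex IV and 17 in complex V, with cytochrome c (Cycs) apart. The symbols take in Atp5s and Atp5sl, which code for proteins that are not subunits of the ATP synthase, and they place Ndufa4 and Ndufa4l2 in complex I, although the Ndufa4 protein is now known to belong to complex IV. The table has no entry from the mitochondrial genome, so the subunits encoded there were not measured.

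The RNA came from cells of dissociated cerebellum that were sorted for green fluorescent protein (GFP) from Aldh1l1-GFP reporter mice on the C57/BL6J background, at P1, P7, P14 and P28, where P counts days after birth. Each time point has 3 libraries, 12 in all, made from untreated animals of the same genotype and of both sexes. The Aldh1l1 promoter, which is active in astrocytes, drives GFP, so the cells at each age are those in which this promoter and the sort selected GFP. The libraries of each age are numbered in the labels, which do not say whether they came from separate animals, so the p-values measure the spread between libraries, which may be technical in part.

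Oxidative phosphorylation passes electrons from NADH and succinate through complexes I and II to ubiquinone, on to complex III, by way of cytochrome c to complex IV and then to oxygen. Complexes I, III and IV pump protons across the inner mitochondrial membrane, and complex V, the ATP synthase, uses the proton gradient to make ATP. Most subunits are encoded in the nucleus and imported, while the core of complexes I, III, IV and V also holds subunits made inside the mitochondrion, and astrocytes are known to combine this respiration with a high rate of glycolysis.

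Between 6399499 and 14733985 reads per library fell on genes. Of the 87 genes, 82 had 3 or more libraries at a normalized count of 10 or higher and were tested, and 79 of these did so in all 12 libraries. Normalized counts are the deposited values, read counts divided by 1 size factor per library. Changes are log2 fold changes of the normalized count + 1 with their standard errors from one limma fit of all 12 libraries, which understate the change of low genes, and a gene was called at a Benjamini-Hochberg adjusted p under 0.05 over the 15464 genes tested, with no minimum fold.

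From P1 to P28, 52 of the 82 subunit genes rose and 0 fell (limma), which is 63.4% called higher against 14.6% of all genes tested, with 20.0% of all genes called lower. The other 30 did not pass, and 4 of these were below 0. Each of the 5 complexes held genes that rose. At an unadjusted p under 0.05, limma also gave 0 lower genes, and by adjusted p edgeR and DESeq2 on the recovered reads called 0 lower. When only genes at 10 or higher in every library were fitted, 51 of the 79 left rose. The median log2 fold change of the 82 was 0.88, against -0.24 over all genes tested. All P28 libraries lay above all P1 libraries for 56 of the 82 genes (68.3%), where the same held for 17.9% of all genes. The highest of the 4 means fell at P28 for 63 of the 82 and at P14 for the other 19, and at P1 or P7 for none of those tested, while 31.1% of all genes were highest at P28.

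**Figure D1:**
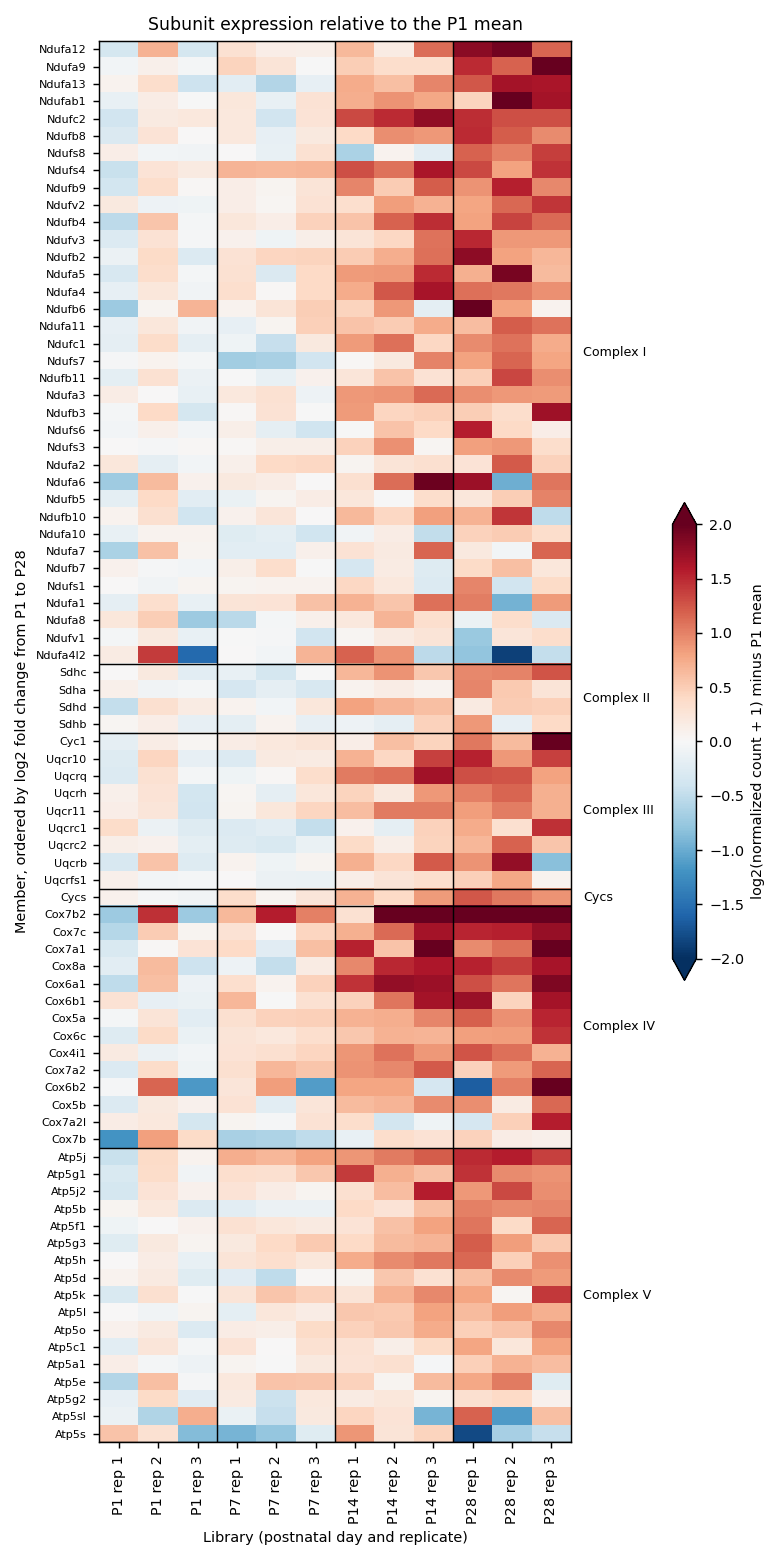
Level of the tested subunit genes, 1 excepted (a line of cells per gene, grouped by complex and ordered by its log2 fold change from P1 to P28) in each of the 12 libraries (columns), as log2(normalized count + 1) minus the mean of the 3 P1 libraries. Red is above the P1 mean and blue below it, values beyond 2 in either direction take the end colours, and the red cells gather in the P14 and P28 columns of every complex.

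The summed reads of all 87 genes made up 0.475, 0.599 and 0.487% of the reads of the P1 libraries, 0.549, 0.536 and 0.583% at P7, 0.687, 0.711 and 0.794% at P14 and 0.784, 0.728 and 0.775% at P28. All P14 and P28 libraries lay above all P1 and P7 libraries in this share, and those of P14 and P28 overlapped. On the log2 scale, the mean difference of the 82 tested genes from their P1 means was -0.14, 0.26 and -0.12 in the P1 libraries, 0.081, 0.045 and 0.18 at P7, 0.52, 0.62 and 0.78 at P14 and 0.90, 0.82 and 0.92 at P28. The second P1 library was the highest of its time point for 60 of the 82 genes, and the third P14 library for 48.

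**Figure D2:**
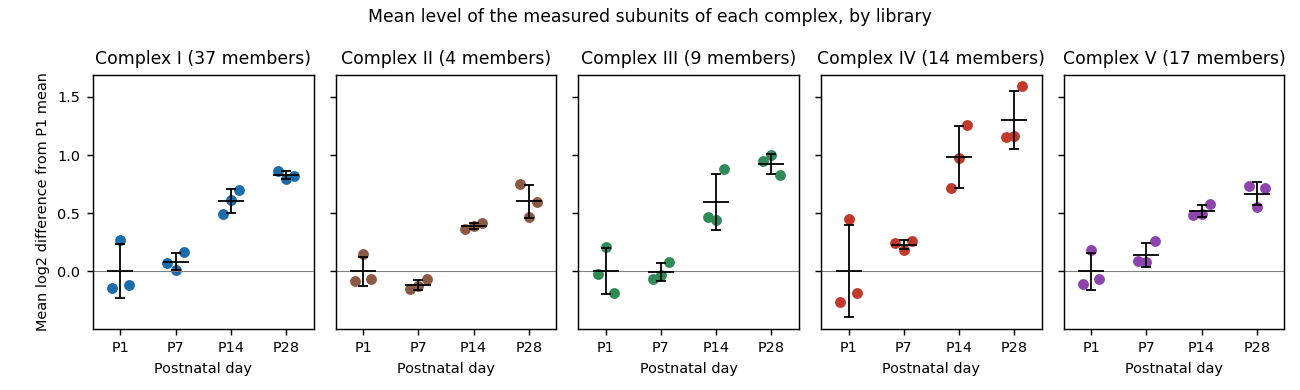
Mean log2 difference of the tested members of complexes I to V from their P1 means (y axis) at each postnatal day (x axis). Points are libraries and bars are the mean and SD of 3 libraries, and in each complex the P14 and P28 libraries lay above those of P7. The complex IV points include Cox7b2, a low gene that entered the test only through P14 and P28 libraries.

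The 3 consecutive steps share libraries with each other and with the comparison of P1 and P28, so their values are given side by side. From P1 to P7, 1 of the 82 genes rose and 0 fell, which is 1.22% against 3.47% of all genes called higher and 4.24% called lower, with 2 genes higher and 1 lower at an unadjusted p under 0.05 (limma). In this step edgeR called 0 and DESeq2 1 higher, and both 0 lower. The median change was 0.11, against 0.037 over all genes. From P7 to P14, 15 rose and 0 fell (18.3% against 10.8% higher and 10.0% lower over all genes), 29 were higher and 0 lower at an unadjusted p under 0.05, and the median was 0.51 against -0.086. In this step edgeR called 17 and DESeq2 21 higher, and both 0 lower. From P14 to P28, 5 rose and 0 fell (6.10% against 5.68% higher and 8.76% lower over all genes), 14 were higher and 1 lower at an unadjusted p under 0.05, and the median was 0.27 against -0.12. Here edgeR called 5 and DESeq2 9 higher, and both 0 lower. The shares of all genes at an unadjusted p under 0.05 alone, with edgeR and with DESeq2 are not given. Those counts therefore cannot be set against a general rate.

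At an unadjusted p under 0.05 with a log2 change over 0.75 in size, the subunit genes called higher numbered 0, 15 and 4 in the 3 steps and 47 from P1 to P28, against 6.94%, 13.1%, 7.83% and 15.6% of all genes. Those called lower numbered 0, 0, 1 (Atp5s, -1.50) and 0, against 7.27%, 13.1%, 16.3% and 23.8% of all genes.

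The share called in the step from P14 to P28 was close to that of all genes, and that of the step from P1 to P7 was below it. From P7 to P14, the libraries of the later time point lay above all those of the earlier one for 53 of the 82 genes (64.6%, against 21.3% of all genes). The corresponding numbers were 8 (9.76% against 20.1%) from P1 to P7 and 17 (20.7% against 11.7%) from P14 to P28. All later libraries lay below all earlier ones for 3, 0 and 2 genes in the 3 steps and for 0 from P1 to P28, against 18.2%, 24.8%, 14.4% and 23.9% of all genes. The means rose at every step for 37 of the 82 genes (45.1%), which held for 7.26% of all genes. Of the 52 genes called from P1 to P28, 18 were also called in a consecutive step, and the step with the largest change was P7 to P14 for 34 of them, P14 to P28 for 13 and P1 to P7 for 5.

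**Figure D3:**
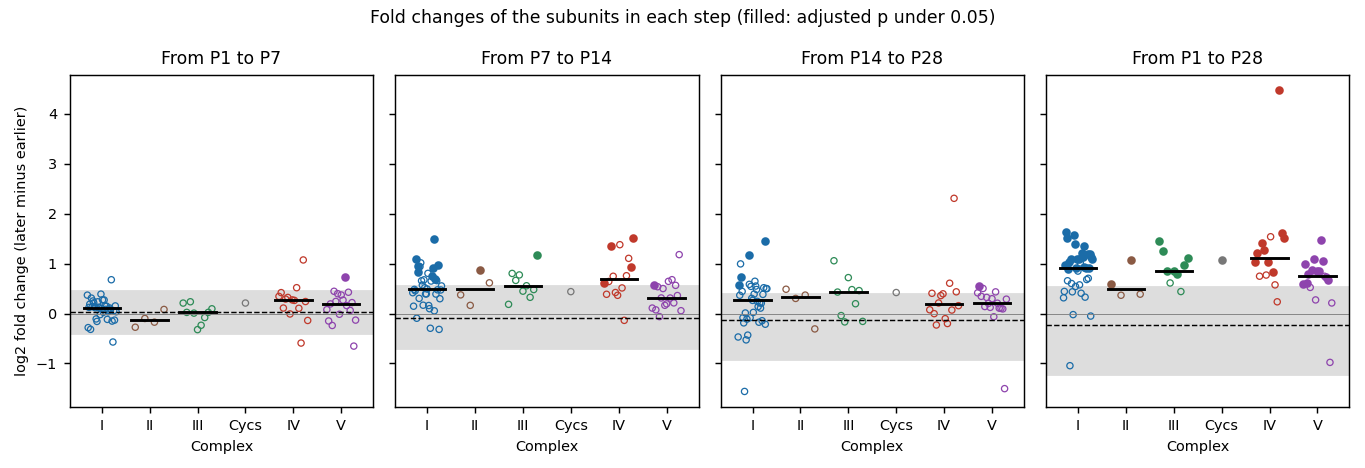
Log2 fold change of each tested subunit gene (y axis) by complex (x axis) in the 3 consecutive steps and from P1 to P28. Filled points have a limma adjusted p under 0.05, thick bars are the medians of the complexes, and the dashed line and grey band are the median and middle quartiles of all 15464 genes. Filled points are most numerous from P1 to P28, where 52 of 82 were called, and all of them lie above 0.

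The sizes of these changes moved with the scaling of the libraries. When the recovered reads were scaled by library totals alone, the median of all genes shifted by -0.42 from P1 to P28, the number of subunit genes called fell to 25, and the change was above 0 for 52 of the 52. Over all 15464 genes tested, the number called higher fell from 2264 to 1368. From P7 to P14 this scaling called 7 of the 82 subunit genes and 1203 of all genes higher, which are similar shares. In relation to the median of all genes, the median of the 82 was 1.12 higher with the deposited scaling and 1.10 higher with library totals. For the step from P7 to P14 these were 0.59 and 0.59. A scaling shifts all genes of a library alike on the log2 scale, apart from the added 1. The relative values were therefore bound to stay, and their likeness is no support for a rise. With TMM scaling, with edgeR and with DESeq2 all 52 genes were called. With each single library left out, the number called from P1 to P28 ranged from 41 to 54, and 39 of the 52 had an adjusted p under 0.05 in all 12 of these fits. It was 49 without the second P1 library. The number called from P7 to P14 was 7 without the first P7 library and 8 without the third P14 library, against 15 with all. From P14 to P28 it was 2 without the first and 3 without the second P14 library, against 5.

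Levels of cell type markers also differed between the time points. The summed normalized counts of 11 astrocyte markers were 61665 to 78466 (P1), 29678 to 54402 (P7), 157145 to 193964 (P14) and 362348 to 423817 (P28), and 9 of the 11 rose and 1 fell from P1 to P28. Those of 10 oligodendrocyte markers were 1689 to 2784 (P1), 23404 to 35707 (P7), 355270 to 402632 (P14) and 106315 to 147550 (P28), above the astrocyte sum at P14, and 10 of the 10 rose from P1 to P28. Pan-neuronal markers (10 genes) summed to 3247 to 8920.2 (P1), 16204 to 19134 (P7), 23756 to 42532 (P14) and 14294 to 18622 (P28), with the highest value in the third P14 library. Proliferation genes (12) summed to 10108 to 18045 (P1), 23968 to 31272 (P7), 772 to 1456 (P14) and 68.4 to 156 (P28), and 12 of the 12 fell from P1 to P28. The median changes of these 4 lists from P7 to P14 were 2.16, 3.55, 0.36 and -4.69, beside 0.51 for the subunit genes. In bulk RNA, more cells of a type and more RNA per cell cannot be told apart, and the part of these cells in the subunit changes was not tested.

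From P14 to P28 the oligodendrocyte markers had a median change of -2.34 (8 of 10 fell) and the pan-neuronal markers one of -1.23 (5 of 10 fell), while the astrocyte markers had one of 1.04 (8 of 11 rose). The subunit genes had a median of 0.27 in this step, and 0 of the 82 fell. Choroid plexus markers (7) summed to 354 to 806 (P1), 48246 to 128162 (P7), 924 to 109826 (P14) and 17993 to 184390 (P28), and were lowest in the third library at both P14 and P28. The subunit share of reads was 0.794% in that P14 library and 0.775% in that P28 library. That P14 library also had the highest pan-neuronal sum, 42532. The part of choroid plexus or other cells in the subunit changes was not tested. At P14 the sums over the other lists were 7099 to 15999.6 for 7 granule neuron, 1738 to 2181 for 6 Purkinje cell, 4949 to 6147 for 5 oligodendrocyte precursor, 1961 to 3153 for 8 microglia, 5934 to 5993 for 7 endothelial and pericyte and 21.2 to 44.5 for 5 red blood cell markers. These lists also shifted with age. In the same order, their median changes from P1 to P28 were 2.08, 1.75, -3.40, -0.33, 1.08 and -2.12, the last from 1 tested gene.

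To show the sequence around the start of genes that rose, promoters were taken from RefSeq on GRCm38.p6, from 250 bases before to 50 bases after each gene's start. They were found for 71 of the 87 genes and searched on both strands for GCATGCG, the core of the site of the nuclear respiratory factor NRF1, for CCGGAAG, a core of ETS factors such as GABPA, and for GATGGCG, a core of YY1. These factors are known regulators of respiratory genes. In complexes I, III, IV and V and for Cycs, the gene with the largest rise from P1 to P28 among those called, measured in all 12 libraries and holding one of the 3 cores is shown. They were chosen after their values were seen. Capitals mark the cores, read 5′ to 3′ on the strand of the gene, where a capital run that is the reverse complement holds the core on the other strand. They are Ndufa9 (chr6:126849095-126849394, minus strand, YY1 core), Uqcrh (chr4:116075021-116075320, minus strand, ETS core on the other strand), Cycs (chr6:50566520-50566819, minus strand, YY1 core on the other strand and NRF1 core on both strands, which overlap), Cox8a (chr19:7217567-7217866, minus strand, ETS core on the other strand at both places) and Atp5j2 (chr5:145191492-145191791, minus strand, YY1 core).
Ndufa9: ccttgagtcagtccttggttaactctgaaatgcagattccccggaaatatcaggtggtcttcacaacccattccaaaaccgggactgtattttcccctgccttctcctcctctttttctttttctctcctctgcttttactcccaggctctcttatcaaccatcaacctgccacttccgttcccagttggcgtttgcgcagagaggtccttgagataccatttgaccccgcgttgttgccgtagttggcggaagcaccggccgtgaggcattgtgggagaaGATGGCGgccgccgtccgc
Uqcrh: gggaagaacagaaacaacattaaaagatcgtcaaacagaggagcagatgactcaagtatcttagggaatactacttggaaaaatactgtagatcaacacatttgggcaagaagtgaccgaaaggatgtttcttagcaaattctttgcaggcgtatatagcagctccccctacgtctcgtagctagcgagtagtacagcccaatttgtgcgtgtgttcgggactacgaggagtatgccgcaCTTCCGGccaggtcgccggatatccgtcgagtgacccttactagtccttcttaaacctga
Cycs: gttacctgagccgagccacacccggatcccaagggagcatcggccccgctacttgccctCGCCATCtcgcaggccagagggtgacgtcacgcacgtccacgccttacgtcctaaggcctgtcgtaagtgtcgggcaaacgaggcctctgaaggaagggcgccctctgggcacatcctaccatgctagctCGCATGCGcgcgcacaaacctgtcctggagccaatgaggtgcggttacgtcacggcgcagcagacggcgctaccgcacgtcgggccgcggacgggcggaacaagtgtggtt
Cox8a: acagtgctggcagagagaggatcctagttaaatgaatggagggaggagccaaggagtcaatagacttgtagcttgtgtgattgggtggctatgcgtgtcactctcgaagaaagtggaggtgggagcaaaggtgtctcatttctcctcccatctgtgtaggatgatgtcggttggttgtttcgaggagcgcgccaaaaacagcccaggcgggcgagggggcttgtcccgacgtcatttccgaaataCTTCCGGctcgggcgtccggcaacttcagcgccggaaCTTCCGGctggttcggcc
Atp5j2: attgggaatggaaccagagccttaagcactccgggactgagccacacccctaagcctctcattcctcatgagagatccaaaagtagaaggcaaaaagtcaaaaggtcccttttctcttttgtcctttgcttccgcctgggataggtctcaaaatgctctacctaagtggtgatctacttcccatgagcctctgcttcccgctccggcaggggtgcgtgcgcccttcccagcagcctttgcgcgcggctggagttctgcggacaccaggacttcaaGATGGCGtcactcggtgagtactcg

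The NRF1 core was present in 11 of the 71 promoters (15.5%), against 3.64% of all 27025 promoters in the table and 6.13% of the 12123 that belong to tested genes. The YY1 core was likewise in 11 (15.5%, against 3.66% and 5.98%), and the ETS core in 15 (21.1%, against 9.12% and 16.2%). At least 1 of the 3 cores was in 30 of the 71 (42.3%, against 14.9% and 25.5%). The YY1 core was in 6 of 33 promoters of complex I, 0 of 3 of complex II, 0 of 5 of complex III, 2 of 13 of complex IV and 2 of 16 of complex V. From P1 to P28 the median change of genes with and without the NRF1 core was 0.75 (n = 11) and 0.92 (n = 58), with and without the ETS core 0.85 (n = 15) and 0.90 (n = 54), and with and without the YY1 core 1.04 (n = 11) and 0.85 (n = 58). These shares and medians are descriptions, and a match is not evidence of binding. The YY1 core holds ATG, and in Ndufa9 and Atp5j2 it begins at bases 282 and 276 of the window, after the gene's start. Such a match can be part of the coding sequence, and the share of these was not counted.

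Complex I oxidizes NADH. Of its 37 tested members, 21 rose and 0 fell from P1 to P28, with a median of 0.92. In the 3 steps 0, 8 and 4 rose and 0 fell in each, with medians of 0.11, 0.49 and 0.26, and at an unadjusted p under 0.05 limma gave 1 higher and 1 lower from P1 to P7. Over all genes, 3.47%, 10.8% and 5.68% were called higher in these steps and 14.6% from P1 to P28. The mean of its members differed from their P1 means by 0.49, 0.62 and 0.70 in the P14 libraries and by 0.87, 0.79 and 0.82 at P28. The 3 P28 libraries lay above those of P14, which lay above those of P7 and P1.

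The 7 nuclear core subunits, which carry the flavin and the iron-sulfur clusters of the electron path, had a median of 0.90 from P1 to P28. Of these 4 were called higher, and of the 28 tested accessory subunits, with a median of 0.95, 16 were (14.6% of all genes). The difference between these classes, which were set by textbook role after the values were seen, was not tested. Among the core, Ndufs8 (chr19:3908863-3912774 on GRCm38), an iron-sulfur subunit near the quinone site, had normalized counts of 426, 371 and 367 at P1, 390.1, 349 and 477 at P7, 248, 404 and 334 at P14, and 878, 782 and 1012 at P28. All P28 libraries were above the other 9, among which P14 held the lowest value. Ndufs8 rose 2.74-fold from P14 to P28 (log2 1.46 ± 0.24, adjusted p = 0.00181, limma), the largest rise of complex I in that step, while its change from P7 to P14 was -0.32 (adjusted p = 0.402).

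The flavin-binding subunit Ndufv1 (chr19:4007384-4012806), where NADH enters, had 247, 291 and 228 at P1, 253, 251 and 195 at P7, 262, 289 and 305 at P14, and 152, 299.6 and 323 at P28. The lowest of the 12 values was in the first P28 library and the highest in the third, so that P28 spanned the range of all ages, and its mean log2 difference between P1 and P28 was -0.051 (adjusted p = 0.915, limma). Ndufs1, the largest core subunit, had 437, 412 and 453 at P1, 449, 454 and 453 at P7, 578, 500.4 and 357 at P14, and 852, 334 and 567 at P28. Its P28 libraries also overlapped those of P1, with a change of 0.33 (adjusted p = 0.42, or -0.11 with library totals). This was 0.0044 without the first and 0.68 without the second P28 library.

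Ndufa13 (chr8:69894180-69902558) had the highest mean level per kilobase of transcript in complex I, 2929.7 normalized counts per kb over the 12 libraries, followed by Ndufa4 with 1999.8. Ndufa13, an accessory subunit also known as GRIM-19, had 2399, 2896 and 1705 at P1, 1971, 1519 and 2045 at P7, 3815, 3447 and 4496 at P14, and 5398, 7199 and 7090.2 at P28. All P28 libraries lay above those of P14, and these above those of P1 and P7. It was called in 2 steps, with a rise from P7 to P14 (log2 1.09 ± 0.20, adjusted p = 0.00155, limma) and another from P14 to P28 (log2 0.74 ± 0.20, adjusted p = 0.0269), and the latter had adjusted p values from 0.063 to 0.0935 with P14 replicate 1, P14 replicate 2, P28 replicate 2 or P28 replicate 3 left out. From P1 to P28 it rose 2.85-fold (adjusted p = 6.32e-05), and an exon of it overlaps Tssk6 on the other strand.

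Ndufc2 (chr7:97400003-97407802), an accessory subunit of the membrane arm, had 269, 401 and 406 at P1, 409, 271 and 424 at P7, 878, 995 and 1202 at P14, and 986, 859.8 and 861 at P28. The P14 and P28 libraries were all above those of P1 and P7 and overlapped each other. It had the largest rise of complex I from P7 to P14, 2.81-fold (log2 1.49 ± 0.24, adjusted p = 0.000505, limma), and changed by -0.17 from P14 to P28 (adjusted p = 0.672). Ndufa9 (chr6:126821721-126849136), an accessory subunit at the joint of both arms whose promoter is shown above, had 196, 220.1 and 198 at P1, 279, 243 and 204 at P7, 289, 260.2 and 261 at P14, and 579, 462 and 829 at P28. Its P28 libraries were above all others, and it rose from P14 to P28 (log2 1.16 ± 0.27, adjusted p = 0.0124, limma). Its exons overlap 1700018A23Rik on the other strand.

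The largest rise from P1 to P28 in complex I was that of Ndufa12, an accessory subunit, with 178, 371 and 179 at P1, 280.3, 251 and 248 at P7, 357, 256 and 493 at P14, and 796, 872 and 514 at P28. Every P28 library lay above every P1 library (log2 1.63 ± 0.34, adjusted p = 0.00203, limma), and the gene has 1 near-identical copy elsewhere that could share reads. Other genes of complex I called from P7 to P14 included Ndufa3, Ndufa4, Ndufb9, Ndufc1 and Ndufs7, with log2 changes from 0.75 to 0.98. With 1 library left out, Ndufb9 had adjusted p values up to 0.169 (P14 replicate 3), Ndufc1 up to 0.141 (P7 replicate 2), Ndufa3 up to 0.101 (P7 replicate 3) and Ndufs7 up to 0.0687 (P14 replicate 3). Ndufc1 has 36 near-identical copies. In the step from P14 to P28 the fourth call was Ndufa10 (log2 0.58 ± 0.18, adjusted p = 0.0465), which had adjusted p values of up to 0.173 and stayed under 0.05 only when the left-out library was P14 replicate 2. Of the 16 tested members not called from P1 to P28, the changes lay between -1.04 for Ndufa4l2 and 1.01 for Ndufb6, and 3 were below 0.

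Complex II, succinate dehydrogenase, belongs both to the respiratory chain and to the tricarboxylic acid cycle and is encoded in the nucleus alone. From P1 to P28, 2 of its 4 genes rose and 0 fell (14.6% and 20.0% of all genes). The median of 0.49 was the smallest of the 5 complexes. In the 3 steps 0, 1 and 0 rose (3.47%, 10.8% and 5.68% of all genes), with medians of -0.14, 0.49 and 0.34. The difference from the other complexes was not tested. With library totals the median from P1 to P28 was 0.050.

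Sdhc, a membrane anchor that binds heme, had 433, 492 and 370.3 at P1, 385, 336 and 424 at P7, 683, 801 and 622 at P14, and 837, 856 and 1022 at P28. The P28 libraries were the highest, the P14 libraries came next, and neither overlapped P1 or P7. It rose from P7 to P14 (log2 0.88 ± 0.21, adjusted p = 0.00718, limma) and 2.1-fold from P1 to P28. The flavoprotein subunit Sdha, with 554 normalized counts per kb the most abundant of the 4 by transcript length, had 1563, 1379 and 1418 at P1, 1154, 1288 and 1159.6 at P7, 1526, 1609 and 1526 at P14, and 2864, 2077 and 1729.6 at P28. All P28 libraries were above the rest, and the first of them was the highest. Sdha rose from P1 to P28 (log2 0.58 ± 0.18, adjusted p = 0.0208, limma), with adjusted p values from 0.0572 to 0.075 with P1 replicate 2, P1 replicate 3 or P28 replicate 1 left out and a change of 0.39 without the first P28 library, over 1.5 times smaller.

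The iron-sulfur subunit Sdhb had 498, 535 and 433 at P1, 425, 509 and 433 at P7, 455, 432 and 670.0 at P14, and 884, 433 and 645 at P28. Its P28 libraries overlapped those of every other age (log2 0.37 from P1 to P28, adjusted p = 0.312, limma, or -0.07 with library totals), with 0.12 without the first and 0.63 without the second P28 library. Sdhd, the other anchor, changed by 0.39 (adjusted p = 0.305, or -0.047 with library totals).

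Complex III passes electrons from ubiquinol to cytochrome c. Of its 9 genes, 7 rose and 0 fell from P1 to P28 (14.6% and 20.0% of all genes), with a median of 0.86. Over the consecutive steps 0, 1 and 0 rose (3.47%, 10.8% and 5.68% of all genes), with medians of 0.023, 0.56 and 0.43. For complex III the first median ranged from -0.099 without the third to 0.24 without the second P1 library. Its P14 libraries differed from the P1 means by 0.47, 0.44 and 0.88, with the third of them inside the range of P28, 0.94, 1.00 and 0.83.

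Cyc1 (chr15:76343523-76346260), the heme-bearing subunit that hands electrons to cytochrome c, had 536, 667 and 619 at P1, 674, 701 and 724 at P7, 662, 916 and 826 at P14, and 1264, 936 and 3809 at P28. All P28 libraries were above the others, and the third was above the sum of the other two. Cyc1 rose 2.73-fold from P1 to P28 (log2 1.45 ± 0.37, adjusted p = 0.00774, limma), and by 0.85 without the third P28 library (adjusted p = 0.00771). The Rieske iron-sulfur subunit Uqcrfs1 had 390.1, 350.1 and 356 at P1, 368, 335 and 333 at P7, 401, 435 and 463 at P14, and 506, 625 and 384 at P28. The third P28 library lay below the first P1 library while the other P28 libraries lay above all of P1, and its change of 0.44 did not pass (adjusted p = 0.153). The core protein Uqcrc1 had 605, 429 and 390.0 at P1, 385, 400.5 and 336 at P7, 496, 413 and 642 at P14, and 782, 583 and 1286 at P28. Although called from P1 to P28 (log2 0.84 ± 0.29, adjusted p = 0.0367, limma), its P1 and P28 libraries overlapped, and it had adjusted p values from 0.0506 to 0.138 with P1 replicate 2, P1 replicate 3, P28 replicate 3 or P7 replicate 1 left out, with a change of 0.53 without the third P28 library.

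By transcript length, the small subunits Uqcrh (1833 normalized counts per kb) and Uqcr10 (1717) were the most abundant of complex III. Uqcrh (chr4:116066965-116075071), the hinge protein whose promoter is shown above, had 786, 893 and 568 at P1, 754, 647 and 859 at P7, 1003, 842 and 1344 at P14, and 1480.4, 1656 and 1202 at P28. The P28 libraries were above those of P1 and P7 and overlapped P14 (log2 0.96 ± 0.23, adjusted p = 0.00506 from P1 to P28, limma). Uqcr10 had 394, 634 and 418 at P1, 390.1, 534 and 526 at P7, 760.4, 627 and 1219.5 at P14, and 1368, 859 and 1210.3 at P28. Its P28 libraries were above those of P1 and P7, and P14 had 1 library within the P1 range (log2 1.25 ± 0.28, adjusted p = 0.00353, limma), and the gene has 1 near-identical copy.

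The single call of the complex from P7 to P14 was Uqcrq, a small subunit at the membrane, with 131, 195 and 154 at P1, 148, 159.7 and 202 at P7, 324, 339 and 510.4 at P14, and 386, 379 and 276 at P28. P14 and P28 libraries overlapped each other and lay above the 6 earlier ones. It rose 2.26-fold (log2 1.18 ± 0.30, adjusted p = 0.0128, limma), with adjusted p values from 0.0604 to 0.0608 with P14 replicate 3 or P7 replicate 1 left out.

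Cytochrome c, the mobile carrier between complexes III and IV, is encoded by Cycs (chr6:50562563-50566538), whose promoter above holds the NRF1 core. It had 334, 309 and 301 at P1, 399.7, 325 and 369.7 at P7, 509, 414 and 567 at P14, and 748, 653 and 586 at P28. Each library of P28 was above each of P14, and P14 above P7, while P7 and P1 overlapped. It rose 2.09-fold from P1 to P28 (log2 1.07 ± 0.22, adjusted p = 0.00178, limma), and its 3 steps of 0.21, 0.44 and 0.42 did not pass. The gene has 58 near-identical copies in the annotated transcripts, and how such reads were counted is not given in the sources used here.

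Complex IV, cytochrome c oxidase, reduces oxygen. Of its 14 tested members 9 rose and 0 fell from P1 to P28 (14.6% and 20.0% of all genes). The median of 1.12 was the largest of the 5 complexes, where the difference from the others was not tested. In the 3 steps 0, 4 and 0 rose (3.47%, 10.8% and 5.68% of all genes), with medians of 0.27, 0.69 and 0.18. The last median was -0.053 with library totals and -0.00089 without the first P14 library. The P1 libraries were spread widely, at -0.27, 0.45 and -0.18 from their own mean, with the second the highest. Beyond those, the values were 0.24, 0.19 and 0.26 at P7, 0.72, 0.97 and 1.26 at P14 and 1.15, 1.16 and 1.59 at P28, so that P14 and P28 overlapped. The counts, medians and means of complex IV include Cox7b2, a low gene that entered the test only through P14 and P28 libraries. Its rise is part of the P14 and P28 means, and their values without it were not computed.

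Cox6a1 (chr5:115345642-115348981), the non-muscle isoform of its subunit, had the highest level per kilobase of all 87 genes, 12657 normalized counts per kb. It had 2506, 5395 and 3302 at P1, 4491, 3725 and 4867 at P7, 9664, 12018 and 11673 at P14, and 8703, 7486 and 12897 at P28. All P14 and P28 libraries were above those of P1 and P7, and the third P28 library was the highest of all. It rose 2.55-fold from P7 to P14 (log2 1.35 ± 0.25, adjusted p = 0.0015, limma) and changed by -0.23 from P14 to P28 (adjusted p = 0.579). Cox8a (chr19:7215153-7217616), the ubiquitous isoform of its subunit and the other gene with the ETS core shown above, had 792, 1419.7 and 687 at P1, 857, 657 and 1026 at P7, 1786, 2609.8 and 2830.1 at P14, and 2655, 2391 and 2879 at P28. Its P14 and P28 libraries did not overlap those of P1 and P7, and its rise of 2.83-fold from P7 to P14 was the largest of the complex in that step (log2 1.5 ± 0.26, adjusted p = 0.000959, limma).

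Cox7c, a small subunit, had 539, 1135 and 829.9 at P1, 975, 801 and 1069.7 at P7, 1312, 1754 and 2540.1 at P14, and 2299, 2345 and 2675 at P28. From P7 to P14 it rose (log2 0.93 ± 0.27, adjusted p = 0.023, limma), with adjusted p values from 0.0581 to 0.112 with P14 replicate 2, P14 replicate 3, P7 replicate 1 or P7 replicate 2 left out, and from P1 to P28 it rose 3.05-fold, with no overlap of libraries in either comparison. The fourth gene called from P7 to P14 was Cox4i1, with 619.5, 504 and 526 at P1, 664, 683 and 739 at P7, 1012, 1166 and 1001 at P14, and 1317, 1176 and 891 at P28. Its rise of 0.61 (adjusted p = 0.0351, limma) had adjusted p values from 0.058 to 0.119 with P14 replicate 1, P14 replicate 2, P14 replicate 3, P7 replicate 1, P7 replicate 2 or P7 replicate 3 left out, and an exon of it overlaps Emc8 on the other strand. Cox5a, a subunit on the matrix side, had 596, 729 and 529 at P1, 762, 847 and 849 at P7, 990.2, 1017 and 1212 at P14, and 1397, 1154 and 1757 at P28. It rose 2.31-fold from P1 to P28 (log2 1.21 ± 0.20, adjusted p = 0.000334, limma), and its 3 steps did not pass, at 0.42, 0.38 and 0.40.

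Several subunits of complex IV come as pairs of isoforms, 1 of them known from muscle, lung or testis. The level per kilobase at P28 was 16979 for Cox6a1 and 1.99 for its muscle isoform Cox6a2, 4803 for Cox8a and 1.35 for the muscle isoform Cox8b, and 1514 for Cox4i1 and 2.68 for Cox4i2, known from lung and hypoxia. For Cox6b1 it was 1906, against 85.9 for the testis isoform Cox6b2, and for Cox7a2 601, against 136 for the muscle isoform Cox7a1. Cox6a2 had at most 6 reads in a library, Cox8b at most 10, Cox4i2 at most 18 and the testis gene Cox8c at most 1, and none of these 4 entered the test.

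**Figure D4:**
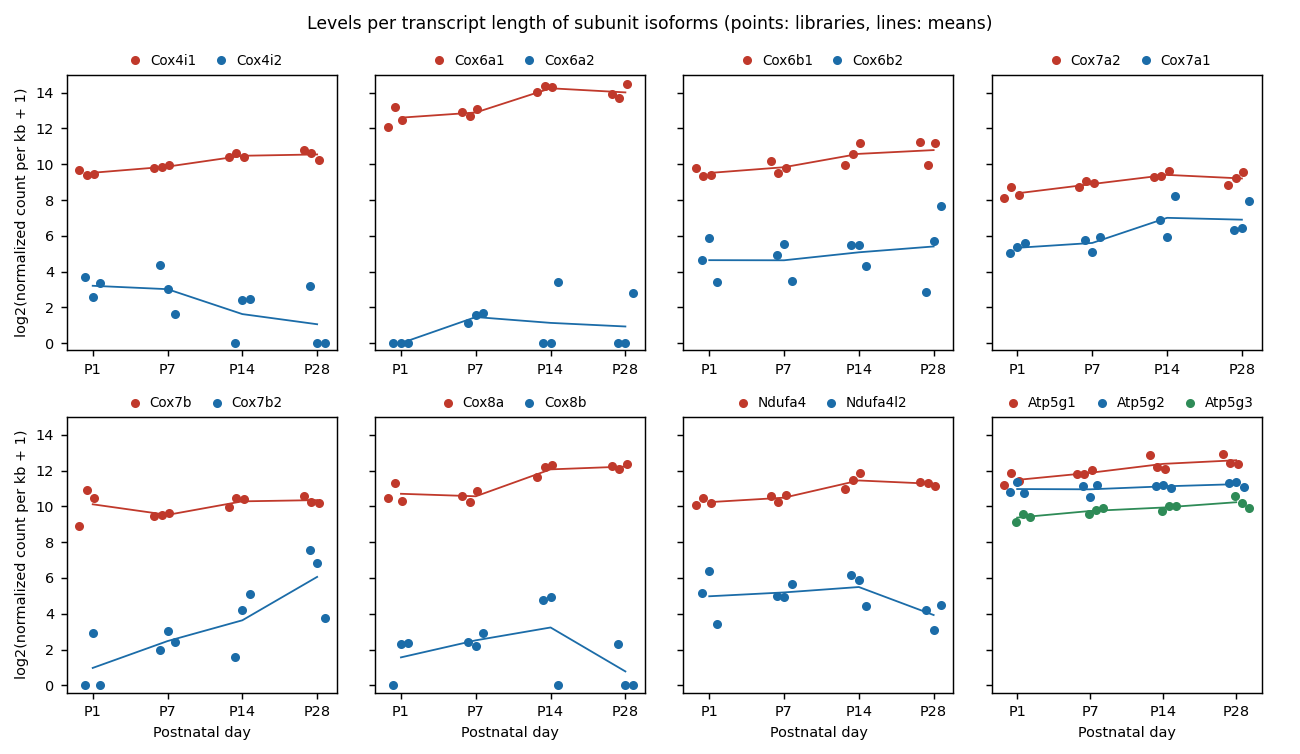
Level per transcript length, as log2(normalized count per kb + 1) (y axis), of subunit isoforms at each postnatal day (x axis). Points are libraries and lines join the means of 3 libraries. The widespread isoforms (red in the first 7 panels) lie above their partners (blue) in every library, and the last panel holds the 3 genes of the c subunit of complex V.

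Among these pairs, Cox6b1 had 551, 404 and 410.4 at P1, 715, 449 and 556 at P7, 619.5, 948 and 1435 at P14, and 1498, 612 and 1424 at P28. It rose from P1 to P28 (log2 1.28 ± 0.35, adjusted p = 0.0123, limma), although the second P28 library was within the range of P7. Cox7a2 had 181, 281 and 204 at P1, 274, 348 and 320.1 at P7, 409, 424 and 511 at P14, and 301, 394 and 492 at P28. All P28 libraries exceeded those of P1 (log2 0.83 ± 0.27, adjusted p = 0.0292, limma), with adjusted p values from 0.0808 to 0.112 with P1 replicate 1, P1 replicate 3 or P28 replicate 3 left out. Cox7a1 had 12.3, 15.7 and 18.9 at P1, 20.7, 13.1 and 24.0 at P7, 46.6, 23.3 and 115 at P14, and 30.7, 34.2 and 96.0 at P28. The third libraries of P14 and P28 were the highest of their ages, P1 and P28 did not overlap, and the change of 1.54 from P1 to P28 did not pass (adjusted p = 0.118).

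Cox7b2, a testis isoform, was a low gene that reached 10 in 3 libraries of P14 and P28 alone, with 0, 3.57 and 0 at P1, 1.59, 3.93 and 2.33 at P7, 1.06, 9.52 and 18.5 at P14, and 102, 62.5 and 6.76 at P28. The P28 libraries ranged from 6.76 to 102, all above those of P1, and the third lay below the highest of P14. Since it entered the test through the ages at which it was high, its call among the 52 is no support for a difference. Its fitted log2 difference between P1 and P28 was 4.48, and 2.22 with a pseudocount of 10 and 6.73 with one of 0.1. Its widespread partner Cox7b had 484, 1965 and 1443 at P1, 705, 725 and 783 at P7, 1001, 1419 and 1362 at P14, and 1532, 1228 and 1187 at P28. The first P1 library was far below the others of its age, and the change from P1 to P28 was 0.23 (adjusted p = 0.653, or -0.20 with library totals). Without that library the change from P1 to P7 was -1.19 and passed the test, against -0.59 (adjusted p = 0.453) with it.

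Cox7a2l, known as a factor of supercomplex assembly, had 308, 323 and 218 at P1, 291, 274 and 339.5 at P7, 356, 216 and 264 at P14, and 221, 390.4 and 832 at P28. The third P28 library was the highest and the first was near the lowest, with a change of 0.57 from P1 to P28 (adjusted p = 0.282, limma) that was 0.073 without the third and 1.03 without the first P28 library. Cox6b2 had 11.1, 26.4 and 4.54 at P1, 13.5, 20.9 and 4.65 at P7, 20.1, 20.1 and 8.69 at P14, and 2.92, 23.6 and 93.3 at P28. P28 held both the lowest and the highest value, and the change was 0.77 (adjusted p = 0.61).

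Ndufa4, listed with complex I by its symbol and known as a subunit of complex IV, had 659.5, 860.2 and 702 at P1, 924, 749.9 and 968 at P7, 1235, 1741 and 2302 at P14, and 1583, 1529.8 and 1383 at P28. Its P14 and P28 libraries were above the earlier 6, and it rose 1.95-fold from P7 to P14 (log2 0.96 ± 0.22, adjusted p = 0.00562, limma). The hypoxia-induced paralog Ndufa4l2 had 32.0, 76.4 and 9.09 at P1, 28.7, 27.5 and 46.5 at P7, 65.7, 54.0 and 19.5 at P14, and 16.1, 7.08 and 20.3 at P28. Its P28 libraries lay below those of P7 and overlapped those of P1 and P14, and its change of -1.04 from P1 to P28 was the lowest of the 82 and did not pass (adjusted p = 0.343).

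Complex V makes ATP in a catalytic head that is driven by a ring in the membrane. Of its 17 members, 12 rose and 0 fell from P1 to P28 (14.6% and 20.0% of all genes), with a median of 0.75. Step by step 1, 1 and 1 of the 17 rose (3.47%, 10.8% and 5.68% of all genes), with medians of 0.19, 0.31 and 0.21. For complex V the last median was -0.030 with library totals. The mean of its members differed from their P1 means by 0.089, 0.076 and 0.26 at P7, 0.48, 0.49 and 0.58 at P14 and 0.73, 0.56 and 0.71 at P28. Among the parts of the enzyme, grouped by textbook place after the values were seen, 4 of 5 genes of the head and central stalk, 4 of 4 of the peripheral stalk and 2 of 3 of the c ring rose from P1 to P28, with medians of 0.61, 0.86 and 0.86.

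The catalytic beta subunit Atp5b (chr10:128083273-128090391) had 4478, 5008 and 3567 at P1, 3732, 3973 and 3952 at P7, 5670.1, 5191 and 6552 at P14, and 8707, 8333 and 8493 at P28. The P28 libraries were above all others, the P14 libraries were above the rest, and P1 and P7 overlapped. Atp5b was called in 2 steps, with a log2 change of 0.57 ± 0.15, adjusted p = 0.0121 from P7 to P14 and of 0.56 ± 0.15, adjusted p = 0.0219 from P14 to P28 (limma). The former had adjusted p values from 0.0526 to 0.0551 with P14 replicate 3 or P7 replicate 1 left out, and the latter adjusted p values from 0.0643 to 0.0795 with P14 replicate 1 or P14 replicate 2 left out. From P1 to P28 it rose 1.97-fold (adjusted p = 0.000156). Its partner in the head, the alpha subunit Atp5a1, had 4277, 3810.3 and 3631 at P1, 4026, 3879 and 4453 at P7, 4702, 4861 and 3817 at P14, and 5428, 6321 and 6008 at P28. The P28 libraries were above all others, and the rest overlapped (log2 0.60 ± 0.14, adjusted p = 0.00468 from P1 to P28, limma). With library totals this was 0.16 and not called, and an exon of it overlaps Haus1 on the other strand.

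The single gene that rose from P1 to P7 was Atp5j (chr16:84827866-84835625), a coupling factor of the peripheral stalk, with 343, 611 and 491 at P1, 774, 743 and 821 at P7, 866, 958 and 1085 at P14, and 1321, 1388 and 1209 at P28. The time points did not overlap at any step, and from P1 to P28 it rose 2.78-fold (log2 1.48 ± 0.21, adjusted p = 0.000103, limma). The rise from P1 to P7 (log2 0.73 ± 0.21, adjusted p = 0.0475) had adjusted p values from 0.0557 to 0.22 with P1 replicate 1, P1 replicate 3, P14 replicate 1, P14 replicate 2, P14 replicate 3, P7 replicate 1, P7 replicate 2 or P7 replicate 3 left out, and edgeR did not call it. An exon of Atp5j overlaps Gabpa on the other strand, and the gene has 1 near-identical copy, so part of its reads may belong to these.

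The c ring subunit is made from 3 genes whose mature proteins are the same and whose import signals differ. Atp5g1 had 1380.0, 2197 and 1627 at P1, 2143, 2133 and 2463 at P7, 4470.2, 2779 and 2561 at P14, and 4644, 3285 and 3179 at P28. Its P28 libraries were above those of P1 and P7 and overlapped P14 (log2 1.10 ± 0.23, adjusted p = 0.00213 from P1 to P28, limma). Atp5g3 had 401, 539 and 488 at P1, 539, 626 and 677 at P7, 621, 731 and 754 at P14, and 1098, 844 and 683 at P28. Its P28 libraries were above those of P1 and P7 and overlapped P14, and it rose as well (log2 0.86 ± 0.22, adjusted p = 0.00753). Atp5g2 had 789, 1157 and 757 at P1, 999, 654 and 1024 at P7, 993, 1032 and 919 at P14, and 1105, 1170.0 and 941 at P28. It overlapped at all ages, with a change of 0.27 (adjusted p = 0.358, or -0.16 with library totals). Per kilobase, the levels at P1 were 2910.2 for Atp5g1, 2043 for Atp5g2 and 667 for Atp5g3, and at P28 they were 6213, 2431 and 1225. Whether the 3 genes differ in their change was not tested.

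Atp5j2 (promoter above), the f subunit in the membrane, had 236, 367 and 321 at P1, 365, 338 and 315 at P7, 380.2, 463 and 901 at P14, and 554, 762 and 579 at P28. Its P28 libraries were above those of P1 and P7, and the highest value was in the third P14 library. It rose from P1 to P28 (log2 1.04 ± 0.31, adjusted p = 0.0166, limma), with adjusted p values from 0.0502 to 0.0778 with P1 replicate 1 or P28 replicate 2 left out. Atp5s, which the symbol rule took in although it is no subunit, had 64.6, 53.6 and 23.5 at P1, 22.3, 24.9 and 36.4 at P7, 80.5, 51.8 and 59.7 at P14, and 11.7, 27.1 and 31.1 at P28. It overlapped at P1 and P28 and changed by -0.98 (adjusted p = 0.255), the only negative change of the 17 from P1 to P28, under the scaling of the deposited table.

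Other genes of mitochondrial respiration were compared with the subunits. Assembly factors build the complexes without staying in them. Of 47 tested, 5 rose and 1 fell from P1 to P28 with a median of 0.41, and in the 3 steps the counts were 0 and 0, 0 and 0, and 1 and 1, with medians of 0.085, 0.049 and 0.23. Over all genes, 3.47%, 10.8% and 5.68% were called higher in the steps and 4.24%, 10.0% and 8.76% lower. Ndufaf7, a methyltransferase for a complex I subunit, had 175, 172 and 177 at P1, 168, 183 and 137 at P7, 104, 128 and 224 at P14, and 369.7, 288 and 418 at P28. All P28 libraries were above all others, and it rose from P14 to P28 (log2 1.29, adjusted p = 0.0222, limma). Cox18, which helps insert a complex IV subunit into the membrane, had 137, 163 and 70.4 at P1, 99.53, 81.1 and 67.4 at P7, 115, 168 and 92.3 at P14, and 17.5, 46.0 and 27.0 at P28. All P28 libraries were below all others, and it fell by 2.08 (log2) between P14 and P28 (adjusted p = 0.0191, limma). The share of assembly factors called higher from P1 to P28 was 5 of 47, beside 52 of 82 subunits and 14.6% of all genes.

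In the tricarboxylic acid cycle, which feeds NADH and succinate to the chain, 9 of 14 genes rose and 0 fell from P1 to P28 (against 14.6% higher and 20.0% lower over all genes), with a median of 0.74. In the 3 steps 0, 5 and 3 rose and 0 fell (limma), with medians of -0.062, 0.41 and 0.43, where 3.47%, 10.8% and 5.68% of all genes were called higher. Suclg1, a subunit of succinyl-CoA ligase, had 229, 226 and 251 at P1, 252, 200.2 and 222 at P7, 397, 475 and 592 at P14, and 732, 732 and 614 at P28. The P28 libraries lay above those of P14 and these above the rest, and it rose most of the list from P7 to P14 (log2 1.10, adjusted p = 0.00392). Its partner subunit Suclg2 had 1191, 1236 and 875 at P1, 751, 601 and 720.1 at P7, 494, 611 and 548 at P14, and 1244, 1609 and 1252 at P28. Its P7 and P14 libraries overlapped and lay below all of P1, and it rose most of the list from P14 to P28, to levels above all others (log2 1.31, adjusted p = 0.0012).

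**Figure D5:**
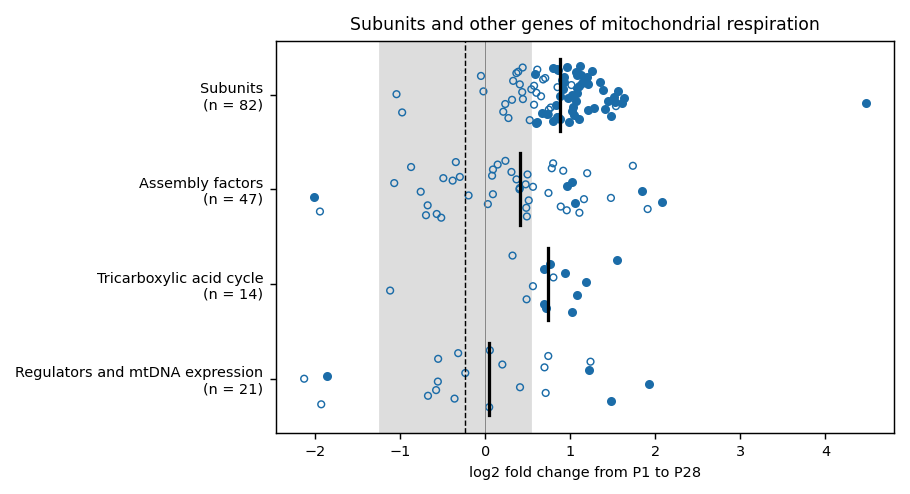
Log2 fold change from P1 to P28 (x axis) of the 82 tested subunit genes, 47 assembly factors, 14 genes of the tricarboxylic acid cycle and 21 regulators and genes of mitochondrial DNA expression (y axis). Filled points have a limma adjusted p under 0.05, thick bars are medians, and the dashed line and grey band are the median and middle quartiles of all genes tested. The medians are 0.88, 0.41, 0.74 and 0.045.

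Among 21 regulators and genes of mitochondrial DNA expression, 3 rose and 1 fell from P1 to P28 (against 14.6% higher and 20.0% lower over all genes), with a median of 0.045. By step 1 rose and 0 fell, 2 rose and 2 fell, and 2 rose and 1 fell, with medians of 0.37, -0.28 and -0.030, where 3.47%, 10.8% and 5.68% of all genes were called higher and 4.24%, 10.0% and 8.76% lower. Esrrg, an estrogen-related receptor that activates respiratory genes, had 164, 68.6 and 331 at P1, 1248, 839 and 1220.1 at P7, 407, 361 and 263 at P14, and 346, 518 and 456 at P28. All P7 libraries were above all others, with a log2 rise of 2.80 between P1 and P7 (adjusted p = 0.0012, limma), after which it fell by 1.68 to P14 (adjusted p = 0.0121). Ppargc1b, a coactivator of mitochondrial biogenesis, had 40.6, 57.9 and 32.6 at P1, 36.6, 39.3 and 23.3 at P7, 168, 144 and 199 at P14, and 107, 41.3 and 75.7 at P28. It rose by 2.35 from P7 to P14 (adjusted p = 0.00547), where all P14 libraries exceeded those of the other ages.

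Pprc1, a coactivator related to it, had 357, 278 and 317 at P1, 427, 391 and 352 at P7, 215, 147 and 104 at P14, and 316, 589.7 and 257 at P28. It was lowest at P14 and rose by 1.28 to P28 (adjusted p = 0.0242, limma). Polg2, a subunit of the mitochondrial DNA polymerase, had 115, 113 and 99.96 at P1, 147, 208 and 144 at P7, 167, 94.2 and 128 at P14, and 11.7, 22.4 and 92.0 at P28. It fell by 2.08 from P14 to P28 (adjusted p = 0.0373), where all P28 libraries were below all of P14. Of the factors whose cores were searched, and chosen here for that reason, Nrf1 changed by -0.56 from P1 to P28 (adjusted p = 0.302), Gabpa by -0.36 (adjusted p = 0.144) and Yy1 by 0.053 (adjusted p = 0.935).

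Of the 5 genes left out of the test, Ndufs5 of complex I was listed with 0 reads in all 12 libraries, which allows up to 3 reads in each by counting error alone. It has 1 near-identical copy, and how shared reads were counted is not given in the sources used here. The level of Ndufs5 in these cells is therefore not known. In all, 27 of the 87 genes have a transcript of another gene that matches them over at least 75 bases at 95% identity or more, and exons of 26 overlap those of another gene, 24 of them on the other strand. Whether the counting used strand is not given in the sources used here. Among the 40 tested genes free of both, 24 rose and 0 fell from P1 to P28, with a median of 0.88. Their medians in the 3 steps were 0.068, 0.56 and 0.20. For the 17 of them in complex I the median from P14 to P28 was -0.084, against 0.26 over all its tested members, and for the 7 in complex V the median from P1 to P7 was -0.13, against 0.19.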

How the data were processed

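RNA of the 12 libraries, made with the Trio RNA-Seq kit from 10 ng of total RNA, was sequenced as paired ends. The authors aligned the reads with STAR to mm10, used UCSC transcripts for counting, and deposited gene counts divided by DESeq2 size factors, a signal rather than whole counts. The submitters' processing notes name STAR 2.5.0a and DESeq2 1.30.1. Strand and the treatment of multiply mapped reads are not given in the sources used here. The column names all carry P28, and columns were matched to libraries through the labels.

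From the deposited signal, log2(value + 1) was fitted in limma 3.58.1 (R 4.3.3) with a mean per time point, for genes that reached 10 in 3 or more libraries. Library totals of 6399499 to 14733985 reads limit precision, most of all for low genes. The P28 libraries had reads on 14249 to 14749 genes and the P14 libraries on 16197 to 16642. The lowest such number among the younger libraries was 17464. Log2 values of P28 libraries correlated with each other at 0.849 to 0.862, and those of P14 libraries at 0.898 to 0.913. Within the 2 younger ages the lowest correlation was 0.928. The part of these age differences in the subunit changes was not tested. Whole reads were recovered from the values (100% whole within 0.01 reads) for edgeR 4.0.16 and DESeq2 1.42.0, and under edgeR 52 and under DESeq2 55 members rose from P1 to P28. Other pseudocounts, filters, scalings, a replicate block, an unadjusted p under 0.05 with a log2 change over 0.75 (the study gives a fold change and p threshold without saying whether on the log2 scale or adjusted) and leaving out each library were tried as well, and the scripts were tested on simulated data. The labels do not say that replicate numbers pair the libraries, and the main fit did not pair them. Correlations of deviations ran from -0.029 to 0.139 between libraries of the same number and from -0.105 to 0.054 between those of different numbers.

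The subunit genes, the other gene lists and the cell type markers were chosen with earlier results of these data known. Genes named in the text are, per complex, those with the largest called changes or highest levels and the catalytic, cofactor-bearing and isoform genes, of each other respiratory list the genes with the largest called rise and fall in a step, and Ndufa9, Ndufa12, Ndufa10, Ndufa3, Ndufb9, Ndufc1, Ndufs7, Sdhd, Cox7c, Atp5j2, Atp5s and the factors of the searched cores were named after their values were seen. Gene positions, transcript lengths and overlaps came from GENCODE on GRCm38, the build of mm10. One gene of the set enters the counts and medians and is not reported here by itself.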

Additional observations from a re-analysis of the deposited data

How the results depend on the processing

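Of 652 alternative values of counts and medians, 608 stayed within the spread between libraries or, for counts, within 1.5 times, 43 moved further and 1 did so with a change of sign. Among 460 alternative medians 6 turned sign, those of complexes IV and V from P14 to P28 with library totals, that of complex IV from P14 to P28 without P14 replicate 1 and that of complex III from P1 to P7 without P1 replicate 1, P1 replicate 3 or P7 replicate 3. Fold changes of named genes stayed on their side of the threshold in 3035 of 3116 cases, came to pass in 23 and ceased to pass in 58. The sign turned in 74, and in 0 of these had the gene been called. With library totals the genes called higher numbered 7 from P7 to P14, 2 from P14 to P28 and 25 from P1 to P28. Over all 15464 genes tested these numbers were 1203, 456 and 1368. In both consecutive steps the share of the 82 subunit genes was thus close to that of all genes. Called lower were 0 subunit genes in each comparison, and 2450, 1936 and 5132 of all genes. The medians with library totals were, from P7 to P14, 0.24 for complex I, 0.24 for complex II, 0.30 for complex III and 0.055 for complex V. From P14 to P28 they were 0.027 for complex I, 0.098 for complex II and -0.030 for complex V, which was positive otherwise. From P1 to P28 they were 0.49, 0.050, 0.42, 0.68 and 0.31 for complexes I to V. The all-gene shift under this scaling is given with the results, and the cause of the rest was not tested.

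From P1 to P7, 0 genes were called higher with no filter on low values, with the replicate block, with edgeR under TMM or DESeq2 size factors and at an unadjusted p under 0.05 with a log2 change over 0.75. With the compared time points alone, 26 were called for P7 to P14 but 1 for P14 to P28, and DESeq2 called 9 from P14 to P28. At that unadjusted threshold 1 was lower from P14 to P28. The complex I median from P14 to P28 was 0.37 with edgeR under either scaling and with DESeq2. With the replicate block the genes called higher numbered 14 from P7 to P14, 5 from P14 to P28 and 50 from P1 to P28. Since the labels do not say that the numbers pair the libraries, this is given once.

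Leaving out single libraries gave 0 to 1 higher and 0 to 1 lower calls from P1 to P7, 7 to 19 higher from P7 to P14, 2 to 6 from P14 to P28 and 41 to 54 from P1 to P28. The medians ranged from 0.44 to 0.60 for complex I from P7 to P14, from 0.17 to 0.46 for complex II, -0.00089 to 0.35 for complex IV and 0.15 to 0.31 for complex V from P14 to P28, and from -0.10 to 0.24 for complex III from P1 to P7.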
